A study of Mus musculus with 3 samples.

Results

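The comparison described here sets fetal liver that lacks the type I interferon receptor (IFN-IR in the labels) as well as DNase II against fetal liver that lacks DNase II alone. Its members were chosen by title: the array titled as double-deficient and the array titled as DNase II-deficient, which are 2 of the 3 arrays of the study. Both mutant samples share the loss of DNase II, the organ (fetal liver), the organism (mouse) and the embryonic stage (E14.5), so the receptor is the one labelled difference between them. The remaining array, from wild-type embryos of the same stage, is given beside them as the background level. Each genotype was measured on 1 single-colour CodeLink oligonucleotide array. The labels do not state how many embryos, litters or livers stood behind an array, or the strain of the mice. Because no genotype was measured again, no difference below carries a test, a standard error or a replicate check, and the number of arrays limits the precision.

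DNase II is the acid nuclease of lysosomes. Macrophages of the fetal liver engulf the nuclei that erythroblasts expel as they mature, and DNase II digests the engulfed DNA. Undigested DNA is known to provoke type I interferon, a family of secreted cytokines including interferon beta and the interferon alphas. These bind a receptor built of the chains IFNAR1 and IFNAR2, which signals through the kinases JAK1 and TYK2. STAT2 and IRF9 then act in the nucleus at interferon-stimulated response elements in front of antiviral genes. The sensing of DNA, through cGAS, STING and IRF3, lies upstream of this relay.

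Of 20289 probes, 20176 had a value in both mutant arrays and 113 did not. The values are normalised intensities with array medians of 0.959 in the DNase II-deficient and 0.963 in the double-deficient array. Values below an array's 25th percentile (0.159 and 0.163, and 0.162 in wild-type) were raised to it, which is called the floor. The probes annotated to exactly 1 gene represented 13700 genes, and 8303 of them were compared, those brighter than an array's median in 1 or both of the mutant arrays. Differences are given as double-deficient minus DNase II-deficient on the log2 scale, or as folds. The typical spread of the difference among genes of similar level was 0.40 on that scale, a description of these arrays rather than of replicate embryos.

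Among the 8303 genes, 403 were at least 2-fold lower in the double-deficient array, 4.85% of those compared, and 258 were at least 2-fold higher, 3.11%. At 4-fold the imbalance grew: 112 genes were lower, 1.35%, and 13 were higher, 0.157%. The median difference over all genes compared was 0.11, and 92.0% of genes lay within 2-fold. Higher genes made up 39.0% of the 2-fold calls as deposited, 30.5% when each array was scaled to its 75th percentile, 27.7% after a loess correction and 26.8% after centring. The 112 genes that were 4-fold lower had a median intensity of 8.16 in the DNase II-deficient array and 0.807 in the double-deficient array, with 0.532 in wild-type. The 258 genes that were 2-fold higher had medians of 2.96 and 7.31, with 7.64 in wild-type. The gap between the mutant medians follows from the cuts that chose these genes. The 0.807 lies below the double-deficient array's median of 0.963. Many of the 112 therefore passed the level filter only through the DNase II-deficient array. Of the 112, 49 belonged to the gene lists for interferon signalling, interferon effectors and antigen presentation. Dim genes supplied many of the calls: when the genes were cut by level into 5 classes of like size, the dimmest class held 207 of the 403, with a spread of 0.56, and the brightest 25, with a spread of 0.35. As a check of the tissue label, red cell and hepatocyte markers were bright in all 3 arrays, and markers of organs that liver should lack summed to 2.004, 1.57 and 1.92 over 4 genes, 2 of them at the floor in both mutants and most of the sum from Gfap.

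**Figure D1:**
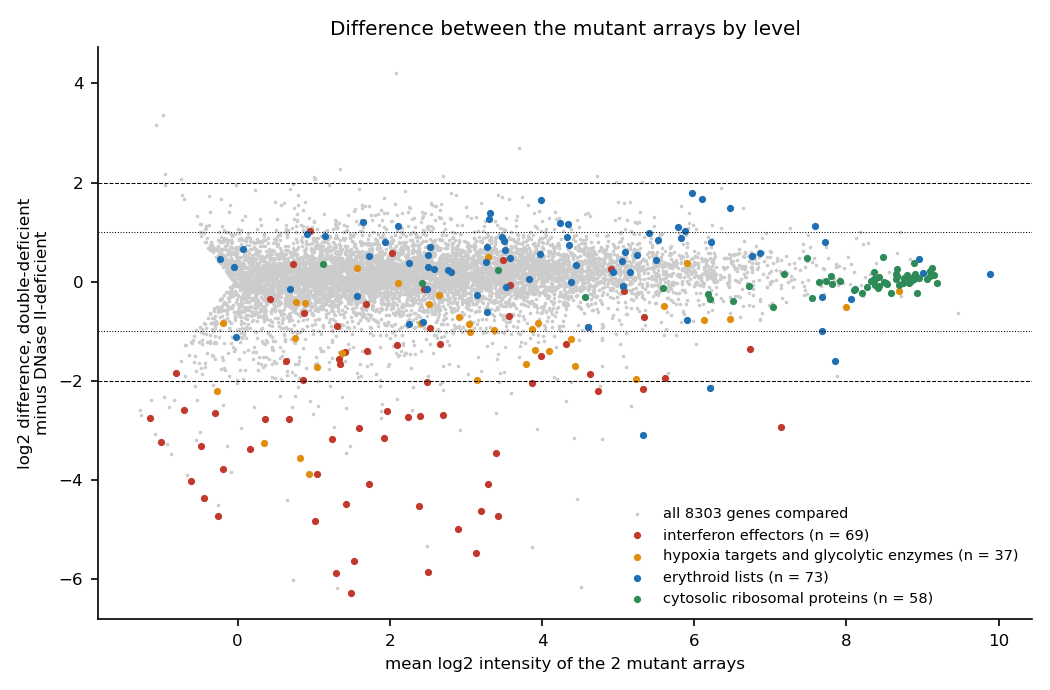
The log2 difference between the mutant arrays (double-deficient minus DNase II-deficient, vertical axis) is plotted against the mean log2 intensity of both arrays (horizontal axis), with 1 point per gene for 8303 genes. Dotted lines mark 2-fold and dashed lines 4-fold. Of the 69 interferon effectors (red) 39 lie at or below -2, while the 58 ribosomal protein genes (green) stay within 2-fold.

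The targeted genes came first. Dnase2a, which encodes DNase II, read 40.4 in wild-type, 48.6 in the DNase II-deficient and 39.7 in the double-deficient array. Ifnar1 read 3.60, 4.66 and 3.17, and Ifnar2 read 0.574, 0.485 and 0.483. The labels do not say which receptor chain IFN-IR stands for, and both are given. Dnase2a was well above its floor in both mutant arrays, and so were Ifnar1 and Ifnar2 above theirs in the double-deficient array. The labels do not say whether these probes fall inside the deleted stretches, so they check neither deletion, and the genotypes rest on the labels. Genes flanking a targeted locus can carry DNA of the strain in which it was targeted, and they were examined too. Of 19 compared genes among the 20 nearest on each side of Ifnar1, 2 were at least 2-fold higher and 1 lower, with a median difference of 0.07. Among 20 compared genes around Dnase2a, 2 were higher and 1 lower, with a median of 0.47 against 0.11 over all genes compared. Both mutants are labelled as lacking DNase II. The labels do not say whether they carry the same flanking DNA, and its part in these values was not tested.

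Type I interferon genes themselves were too dim to follow. Ifnb1 read 0.105 in wild-type, 0.471 in the DNase II-deficient and 0.456 in the double-deficient array, and it did not pass the level filter. It is named after its values were seen. The kinase genes Jak1, at 87.3 and 161 in the DNase II-deficient and double-deficient arrays, and Tyk2, at 6.28 and 5.59, were within 2-fold. Among 13 compared genes for IRF and STAT transcription factors, 5 were at least 2-fold lower and 0 higher, with a median difference of -0.39. Irf7, the factor that amplifies interferon production, read 193 and then 2.68, 71.9-fold lower, against 3.75 in wild-type. Irf9 read 9.58 and 1.42, with 2.09 in wild-type. Stat2, its partner, read 4.99 and 0.873, with 0.877 in wild-type. For all of these the double-deficient value lay at or below the wild-type value. Irf1, which interferon gamma and NF-kB also induce, behaved otherwise, at 16.4 and 10.3 with 3.40 in wild-type. Irf3, the constitutive factor that first responds to DNA sensing, read 2.64 and 3.74.

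Feedback inhibitors of the pathway were divided. Usp18, which blocks signalling at the receptor, read 55.3 and 2.09 and was 26.5-fold lower, with 1.98 in wild-type. Socs1, an inhibitor of JAK kinases, read 2.65 and 0.700, with 0.373 in wild-type. These were the 2 members at least 2-fold lower of 13 compared, and 0 were higher. The median of the list was -0.08, close to the 0.11 of all genes.

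Antiviral effector genes held the largest difference measured in both mutant arrays, that of Rsad2. All 3 Ifit genes, whose products bind viral RNA, were at least 4-fold lower: Ifit3 read 20.3 and 0.408, Ifit1 45.7 and 1.84, and Ifit2 2.26 and 0.226. Of 7 compared genes of the 2-5A synthetase family, which make the activator of RNase L, 6 were 4-fold lower, with a list median of -3.00. Oasl2 led with 58.4 and 1.32, 44.1-fold lower. Oas1a was at the floor in the double-deficient array and so was at least 9.35-fold lower. The signals of close Oas1 copies may not be separable.

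Of 18 compared direct antiviral effectors, 16 were at least 2-fold lower, 12 of them 4-fold, and 0 were higher. The list median was -2.94. Rsad2, the gene of viperin, read 0.181 in wild-type, 24.8 in the DNase II-deficient and 0.319 in the double-deficient array, a 77.8-fold difference between the mutants. Sp100, a nuclear body gene, read 0.247, 18.8 and 0.319 in the same order. Rtp4 read 1.05, 43.1 and 0.740. All 3 were high in the DNase II-deficient array alone. Mx2, a dynamin-like GTPase, was 28.4-fold lower, and its relative Mx1, at the floor in the double-deficient array, was at least 26.4-fold lower. Ifi27 read 3.31, 41.8 and 1.31, so its double-deficient value was under the wild-type one.

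Not every effector returned so far. Ifitm3, which blocks viral entry and is among the brightest members, read 23.02 in wild-type, 388 in the DNase II-deficient and 51.2 in the double-deficient array. Ifitm1 read 32.0, 171 and 66.9. Both were lower without the receptor but stayed above wild-type. In the ISG15 list, 4 of 6 compared genes were 2-fold lower: besides Usp18, these were Herc6 at 7.08 and 0.789, Uba7 at 16.4 and 2.55, and Isg15 at 1.08 and 0.303. The exceptions were Ube2l6, at 36.1 and 31.7, and Usp25, at 27.4 and 32.8.

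**Figure D2:**
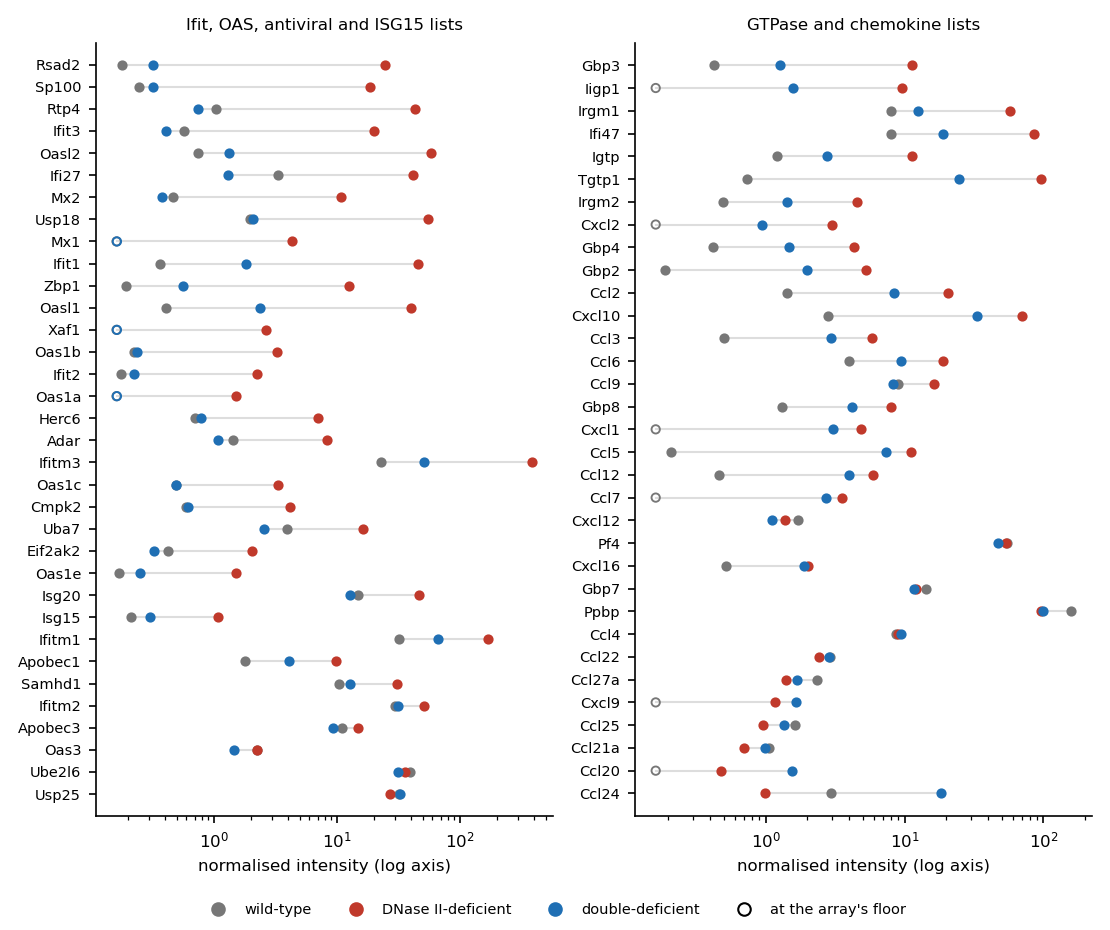
Normalised intensity (horizontal log axes) of each compared gene in the wild-type (grey), DNase II-deficient (red) and double-deficient (blue) arrays, ordered by the difference between the mutants, for antiviral lists (left) and for GTPase and chemokine lists (right). Open circles are values at the floor. Blue points lie beside grey ones for most genes on the left, such as Usp18, and between grey and red for genes on the right such as Tgtp1 and Ccl2.

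The stretches of promoter that carry the interferon-stimulated response element show what several of these genes share beyond the comparison. The core searched was GAAA, any 2 bases, GAAA, on both strands, in the 250 bases before each annotated start. Sequences are RefSeq's, build GRCm38.p6, 5′ to 3′ on the gene's strand, and capitals mark the core or its reverse complement. Rsad2 is at chr12:26456538-26456597 (- strand), Ifit1 at chr19:34640779-34640838 (+), Ifit3 at chr19:34583382-34583441 (+), Isg15 at chr4:156200850-156200909 (-), Apol9a at chr15:77411099-77411158 (-) and B2m at chr2:122147523-122147582 (+). The first 4 are antiviral genes, Apol9a is the most strongly lower gene outside the lists, and B2m is the bright light chain of MHC class I.
Rsad2: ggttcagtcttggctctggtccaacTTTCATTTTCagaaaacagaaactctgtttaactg
Ifit1: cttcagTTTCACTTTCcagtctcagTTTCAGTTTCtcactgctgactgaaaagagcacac
Ifit3: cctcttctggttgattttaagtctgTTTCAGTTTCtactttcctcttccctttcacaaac
Isg15: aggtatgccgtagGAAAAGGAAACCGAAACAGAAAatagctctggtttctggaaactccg
Apol9a: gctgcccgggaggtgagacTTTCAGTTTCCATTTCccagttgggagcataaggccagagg
B2m: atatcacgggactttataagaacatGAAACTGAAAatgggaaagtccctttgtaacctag

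These letters were found in 223 of 6741 compared genes with a promoter entry, 3.31%. They were found in 19 of 55 compared interferon effector genes, 34.5%, and in 15 of the 83 matched genes that were 4-fold lower, 18.1%. Of the 204 matched genes that were 2-fold higher, 4 held them, 1.96%. Within the 4-fold lower genes, 13 of 36 from the interferon and antigen presentation lists held the core and 2 of 47 others did. The interferon lists were drawn up from known interferon targets, so their share is a description of the lists. A match is not a shown binding site, and genes such as Irf7, Sp100 and Oasl2 held none of these letters in the window searched.

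Families of interferon-inducible genes with other functions followed. All 6 compared TRIM genes, encoding ubiquitin ligases that restrict viruses, were at least 2-fold lower, with a median of -3.30. Trim30d read 0.969 in wild-type, 24.98 in the DNase II-deficient and 1.08 in the double-deficient array. Trim34a read 0.594, 13.7 and 0.808. In the Schlafen family, 4 of 6 compared genes were 2-fold lower. Slfn4 was at the floor in the double-deficient array and at least 20.4-fold lower, whereas Slfn2 kept part of its level, at 3.19, 26.7 and 9.44. Slfn3 and Slfn14, at 3.78 and 2.75 and at 3.33 and 4.97 in the mutants, stayed within 2-fold. Of 12 compared PARP and nuclear body genes 5 were lower and 1, Parp16, was 2.05-fold higher. Parp9 read 12.1 and 1.84, and Daxx 29.7 and 7.17. Ifi204 of the p200 family, which binds DNA, read 1.91, 34.9 and 3.19.

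GTPases that act on vacuoles of intracellular pathogens were lower but remained above wild-type. All 6 compared p47 GTPase genes were at least 2-fold lower, with a median of -2.09. The list's median intensity was 0.940 in wild-type, 25.4 in the DNase II-deficient and 5.90 in the double-deficient array. Tgtp1, whose signal may include its close copy Tgtp2, read 0.735, 96.0 and 24.9. Ifi47 read 7.99, 85.4 and 18.99. Iigp1 read 0.160, 9.63 and 1.58. Each of the 6 was lowest in wild-type, highest in the DNase II-deficient array and intermediate in the double-deficient array. Among guanylate-binding proteins 3 of 5 were 2-fold lower, with Gbp3 at 0.429, 11.3 and 1.27, Gbp4 at 0.417, 4.34 and 1.47, and Gbp2 at 0.190, 5.25 and 1.99. Gbp7 was level, at 12.1 and 11.7 in the mutants. Interferon gamma also induces many GTPases, and its gene Ifng, named after its values were seen, lay below the floor in all 3 arrays. A value below the floor does not show that the cytokine was absent, and its part in the GTPase values was not tested.

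The MHC class I pathway, which displays peptides from inside the cell to cytotoxic T cells, was lower in 12 of 20 compared genes and higher in 0, with a median of -1.46. B2m read 111 in wild-type, 456 in the DNase II-deficient and 121 in the double-deficient array. The non-classical class I genes H2-T24 and H2-T23 read 2.86 and 0.288, and 42.0 and 10.3, in the mutants. H2-Q6 and H2-Q7, whose close sequences may share signal, were 4.07-fold and 4.28-fold lower. The peptide transporter gene Tap1 read 0.140, 4.80 and 1.12, so it stayed above wild-type. The interferon-inducible proteasome subunits Psmb8, at 4.99, 49.9 and 15.3, and Psmb9, at 1.88, 12.2 and 3.88, did so too, and these 2 were picked out after their values had been read. The chaperones Calr and Pdia3, which serve all secretory proteins, read 4.41 and 7.82, and 180 and 169. None of 25 compared constitutive proteasome subunits differed by 2-fold, and their median was 0.17.

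MHC class II genes were divided, and 3 of 6 compared were at least 2-fold higher. H2-Aa read 0.512 in wild-type, 0.127 in the DNase II-deficient and 1.42 in the double-deficient array. H2-Eb1 read 0.416, 0.155 and 1.63. Both were at the floor in the DNase II-deficient array and passed the level filter only through the double-deficient array. They were at least 8.98-fold and at least 10.3-fold higher. Cd74, the invariant chain, read 0.898, 2.43 and 5.73. The other members stayed within 2-fold: H2-Ab1 read 0.652 and 1.03 in the mutants, while H2-DMa, at 2.30 and 1.96, and the protease gene Ctss, at 75.3 and 42.6, differed in the lower direction. The levels of H2-Aa and H2-Eb1 are low, and each gene rests on 1 probe. The macrophage markers on the array summed to 8.33, 6.02 and 9.91 in the same array order over 2 genes, a sum made almost wholly of C1qa, since Adgre1 read 0.269, 0.282 and 0.271. Of 15 compared resident macrophage genes 4 were 2-fold higher and 1 lower. Lyz2, at 52.2 and 47.8, and Axl, at 1.54 and 0.935 in the mutants, were within 2-fold. The part of macrophages in the class II values was not tested. In bulk tissue fewer cells of a type and less RNA per cell cannot be told apart, here and in every result on a cell type.

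Sensors of foreign nucleic acid were lower in part. Of 12 compared cytosolic sensors 4 were 2-fold lower and 0 higher. Zbp1, which senses left-handed nucleic acid, read 0.192, 12.6 and 0.566. Ddx58, the gene of RIG-I, read 4.28, 42.9 and 5.43, and Ifih1, the gene of MDA5, read 5.56, 46.0 and 8.67. Trex1, a cytosolic DNA exonuclease, read 3.05, 10.9 and 2.91. The genes of the DNA sensing axis, named after their values were seen, were level between the mutants: Cgas read 1.27 and 1.20, and Sting1 7.77 and 8.61. Mavs, at 2.97 and 4.34, and Tbk1, at 4.22 and 4.73, were also within 2-fold. Of 15 compared Toll-like receptor genes and adaptors, Tlr3 (1.58 and 0.301) and Tlr7 (1.94 and 0.860) were 2-fold lower. Tlr2, the receptor for bacterial lipopeptides, read 1.83 in wild-type, 4.37 and 4.99, and so kept its higher level without the receptor. The nuclease and dNTPase list had 2 of 14 genes lower, which were Trex1 and Samhd1 (30.8 and 12.9).

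Chemokine genes differed among themselves. Of 14 compared CC chemokines, 3 were at least 2-fold lower and 2 higher, with a median of 0.07, close to that of all genes. Ccl2, which recruits monocytes, read 1.43 in wild-type, 20.5 in the DNase II-deficient and 8.38 in the double-deficient array. The other lower members were Ccl3, at 0.503, 5.88 and 2.94, and Ccl6, at 3.98, 18.95 and 9.47. Ccl5, Ccl7 and Ccl12, named after their values were seen, changed less between the mutants. Ccl5 read 0.208, 11.1 and 7.38. Ccl7 read 0.125, 3.53 and 2.70, and Ccl12 read 0.466, 5.89 and 3.99. Each stayed nearer to the DNase II-deficient value than to wild-type.

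Cxcl10, an attractant of activated T cells that both interferon types induce, read 2.81, 70.2 and 33.5. Cxcl1, a neutrophil attractant, lay at the wild-type floor and read 4.89 and 3.07 in the mutants. Cxcl9 was at the floor in wild-type too and read 1.18 and 1.65. Of 8 compared genes in this list, 2 were 2-fold lower, Cxcl10 and Cxcl2, the latter at 0.102, 3.01 and 0.950. Ccl24, an attractant of eosinophils, was the largest difference in the higher direction, at 2.98, 0.985 and 18.2, 18.5-fold higher. Ccl20 read 0.482 and 1.54. Markers of mast cells summed to 4.49, 2.75 and 6.05 over 2 genes in wild-type and then the single and double mutant, and their part in these values was not tested. These markers, Cpa3 and Mcpt8, are the highest of their list by difference, and the eosinophil granule genes Prg2 (9.23 and 8.28) and Prg3 (8.005 and 7.98) were level.

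Inflammatory cytokines were mostly dim. Of 12 compared, 2 were 2-fold lower: Il15, a survival factor of natural killer cells, at 3.07 and 0.872, and Il1b, at 1.54 and 0.730. Their wild-type values were 0.844 and 0.201. Among 11 compared NF-kB genes, Nfkbia, the inhibitor that NF-kB induces, was the only one 2-fold lower, at 7.27, 40.9 and 18.7. Birc3 read 1.99, 5.43 and 3.90 and Relb 0.401, 1.16 and 0.856 in wild-type and then the single and double mutant. Of 11 compared Fc receptor and adaptor genes 3 were lower, led by Fcgr1, the high-affinity IgG receptor, at 4.22, 21.3 and 6.03. Of the co-stimulatory ligands 4 of 7 were lower, led by Cd274, the gene of PD-L1, at 0.420, 9.10 and 1.496.

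Acute phase and complement genes gave mixed results. Of 15 compared acute phase genes, 3 were 4-fold lower and 0 higher. Hamp, which encodes the iron hormone hepcidin, read 5.43 in wild-type, 118 in the DNase II-deficient and 13.7 in the double-deficient array. Serpina3n read 0.440, 8.84 and 0.883. Saa4 was different in kind, since it was level between wild-type and the DNase II-deficient array, at 5.99 and 6.64, and only the double-deficient value of 0.875 was low. Saa3, an inducible serum amyloid, read 1.36, 15.7 and 26.8 and so was not lower without the receptor. The fibrinogen genes Fgb and Fgg read 369 and 363, and 133 and 102, in the mutants. Of 21 complement genes 3 were lower, C2 (3.61 and 0.831), C4b (3.43 and 0.894) and the receptor C3ar1 (11.7 and 3.60), and C8b was higher (8.55 and 18.5).

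**Figure D3:**
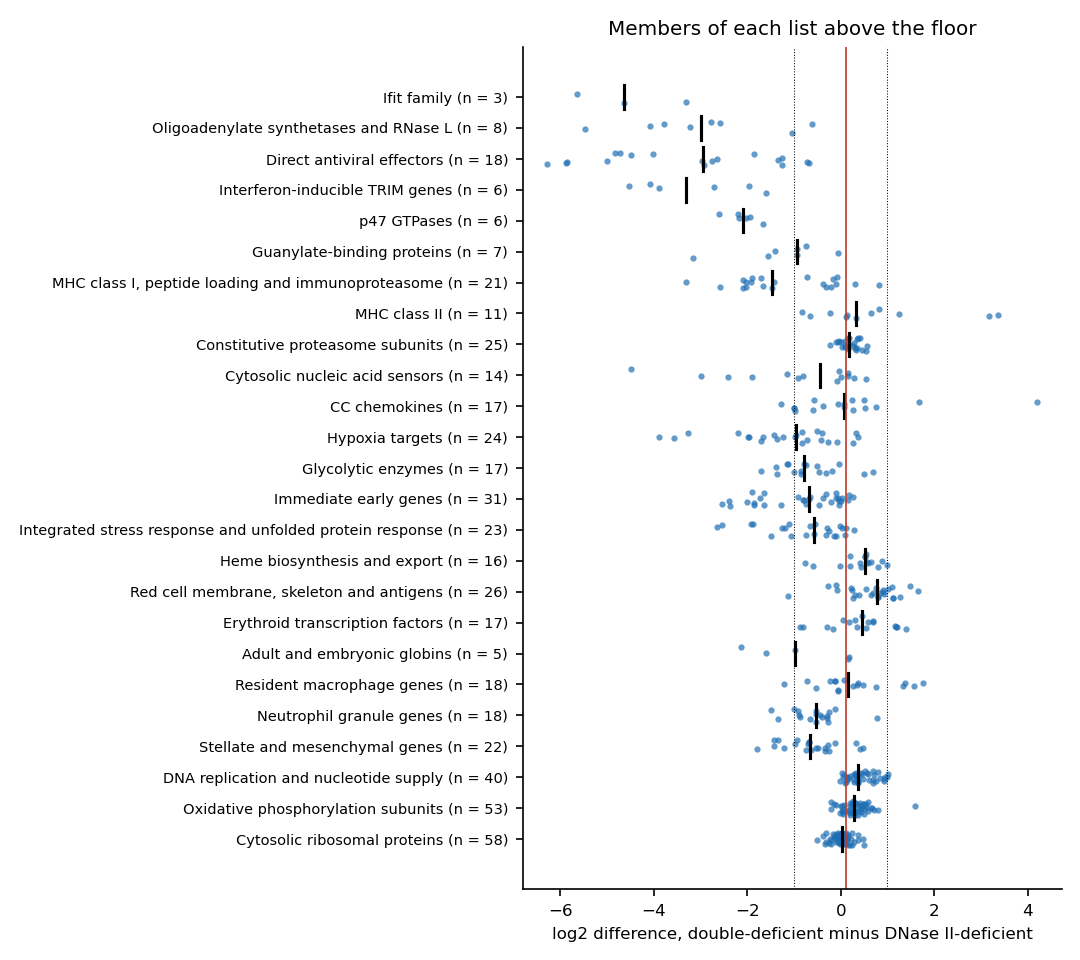
Log2 differences between the mutant arrays (double-deficient minus DNase II-deficient, horizontal axis), with 1 point for each list member above the floor in at least 1 of them, for 25 of the 59 gene lists (rows). Black bars are list medians, the red line is the median of all genes compared (0.11) and dotted lines mark 2-fold. The Ifit median lies at -4.63 and the hypoxia median at -0.96, while the red cell membrane median lies at 0.77.

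Genes of the response to low oxygen were lower in the double-deficient array. Of 22 compared hypoxia targets, 10 were at least 2-fold lower, 4 of them 4-fold, and 0 were higher, with a median of -0.96. Adm, which encodes the vasodilator adrenomedullin, read 0.438 in wild-type, 7.34 in the DNase II-deficient and 0.497 in the double-deficient array. Apln, an endothelial peptide, read 0.303, 6.05 and 0.514. Stc2 read 0.282, 3.93 and 0.411. Their double-deficient values lay near wild-type and the DNase II-deficient value stood alone. Vegfa, the angiogenic growth factor, read 3.96, 17.6 and 4.44, and Bnip3, a mitophagy receptor, read 15.6, 74.7 and 19.1. Hif1a itself, whose product is controlled mainly by its stability, read 2.70 and 3.26 in the mutants. Bnip3l, which also serves mitochondrial clearance in red cells, read 52.8 and 68.3.

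Of 16 compared glycolytic enzymes and transporters, 6 were 2-fold lower and 0 higher, with a median of -0.78. Hexokinase Hk2 read 7.95, 24.2 and 9.33, phosphofructokinase Pfkp 5.59, 39.1 and 11.99, and aldolase Aldoa 8.13, 27.6 and 10.5, in the same order of arrays. Pfkm and Pklr were the 2 measured members with a difference above 0, at 8.26 and 11.7 and at 4.55 and 7.36 in the mutants, each within 2-fold. The bright Gapdh read 439 and 388 and Ldha 303 and 213. The hypoxia response core ACGTG, searched on both strands, was in the promoter window of 13 of 19 matched hypoxia targets, 68.4%, against 1618 of the 6741 matched genes compared. The list was drawn from known hypoxia targets, so its share describes the list. Of the matched genes that were lower, 68 of 308 at 2-fold, 22.1%, and 10 of 83 at 4-fold, 12.05%, held the core. The share over all matched genes compared was 24%. In Bnip3 (RefSeq, GRCm38.p6, chr7:138909579-138909638, - strand) the core, in capitals, and its reverse complement overlap in the palindrome shown here.
Bnip3: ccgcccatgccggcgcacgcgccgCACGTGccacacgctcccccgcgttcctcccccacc

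**Figure D4:**
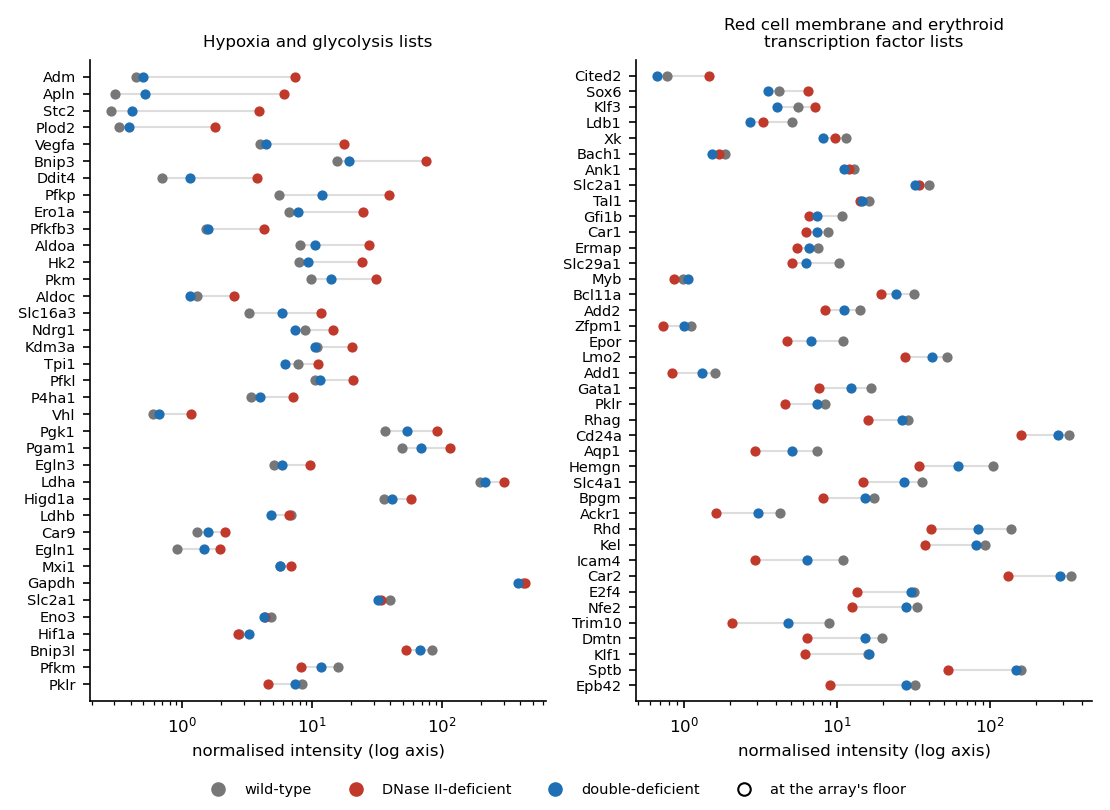
Normalised intensity (horizontal log axes) of each compared gene in the wild-type (grey), DNase II-deficient (red) and double-deficient (blue) arrays, ordered by the difference between the mutants, for hypoxia and glycolysis lists (left) and for red cell membrane and erythroid transcription factor lists (right). On the left most red points are the highest of the 3, as for Adm, and on the right most are the lowest, as for Epb42.

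Heat shock and stress genes were lower in part of their lists. Hspa1a and Hspa1b, near-identical inducible Hsp70 genes whose signals cannot be separated, read 0.509, 93.3 and 2.28, and 2.37, 100.4 and 4.82, in wild-type and then the single and double mutant. The small heat shock genes Hspb1 (3.02 and 1.003 in the mutants) and Hspb8 (5.03 and 1.90) were also 2-fold lower. These were the 4 lower members of 19 compared, and the median of the list was -0.11. Other chaperones were level: Hspa8, the constitutive form, read 192 and 228, Hspa5 of the endoplasmic reticulum 106 and 86.6, and Hsp90aa1 77.6 and 114. The heat shock element, 3 alternating units of GAA and TTC, was found in 0.430% of promoter windows of compared genes and in 2 of 16 matched members of this list. It was found in 0 of the 308 matched genes that were 2-fold lower, Hspa1a and Hspa1b among them. Only 29 of 6741 matched genes compared held it, so a set of this size cannot show a lack of it.

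In the integrated stress and unfolded protein response list 8 of 22 compared genes were 2-fold lower and 0 higher, with a median of -0.58. Atf3 read 0.393, 6.45 and 1.11 in the 3 arrays, and Ddit3, the gene of CHOP, read 13.4, 34.8 and 9.20. Atf4, which acts above both and is controlled in translation, read 228 and 191 in the mutants. Eif2ak2, the double-stranded RNA kinase PKR, is an interferon target as well and was 6.23-fold lower. Of 26 immediate early genes 11 were 2-fold lower and 0 higher, among them Fos (1.29 and 0.246), Jun (12.96 and 3.20) and Ccn2 (9.66 and 1.88). Dusp1, at 3.80 and 4.22, and Jund, at 41.2 and 38.3, were level. The p53 target Cdkn1a, a cell cycle inhibitor, read 0.551, 4.65 and 1.45 and Mdm2 0.781, 1.20 and 0.320. Their list of p53 targets and CDK inhibitors had 3 of 21 compared genes 2-fold lower and a median of -0.11. The inflammatory caspase gene Casp4 read 0.547, 7.28 and 1.85. Its list of caspases, death receptors and the Bcl2 family had 2 of 29 lower and a median of -0.01. In both lists 0 genes were 2-fold higher. Igfbp1, a liver protein that binds insulin-like growth factors, read 4.06, 82.8 and 9.19, while Igf1 was 2.32-fold higher, at 2.67 and 6.21.

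Red cell genes were higher in the double-deficient array. Of 25 compared genes for the red cell membrane, skeleton and antigens, 7 were at least 2-fold higher and 1, Cited2, was lower, with a median of 0.77. Epb42, which links the anion exchanger to the skeleton, read 32.5 in wild-type, 8.93 in the DNase II-deficient and 28.1 in the double-deficient array. Sptb, the erythroid spectrin beta chain, read 159, 52.8 and 148. Car2, a carbonic anhydrase, read 338, 130 and 285. All 3 were lowest in the DNase II-deficient array. Exceptions stayed level, as with Ank1 at 11.9 and 11.1 and Xk at 9.71 and 8.10 in the mutants.

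Of 12 compared genes for iron uptake, storage and release 2 were 2-fold higher and 1, Hamp, was lower, with a median of 0.39. None of 16 compared genes for heme synthesis and export reached 2-fold in either direction, and their median was 0.52. Alad, the second enzyme of the pathway, read 86.7, 30.1 and 59.8 in the 3 arrays, and Fech, the last, read 118, 56.4 and 98.3. The heme-degrading enzyme gene Hmox1 went against the list, at 43.6, 78.0 and 45.9. Slc25a37, the mitochondrial iron importer mitoferrin, read 147, 33.9 and 117, and Tmprss6, a protease that restrains hepcidin, 116, 38.5 and 122. Hamp, the hepcidin gene, differed in the opposite direction. The transferrin receptor gene Tfrc, which rises when cells lack iron, read 18.6, 33.5 and 17.7.

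Among 15 compared erythroid transcription factors 4 were 2-fold higher and 0 lower, with a median of 0.45. Klf1, the master factor of adult globin genes, read 15.9, 6.14 and 16.1. Nfe2 read 33.1, 12.5 and 28.3. Klf1 lies close to Dnase2a on the chromosome, and both mutants are labelled as lacking DNase II. The part of this position in the Klf1 values was not tested. Sox6 and Klf3 went against the list, at 6.44 and 3.54 and at 7.15 and 4.06 in the mutants. The GATA site AGATAA, searched on both strands, was found in 13 of 56 matched compared erythroid genes, 23.2%, and in 8.20% of all compared genes. The erythroid lists were drawn up from red cell genes, so their share describes the lists. The site was also found in 13 of the 83 matched genes that were 4-fold lower, 15.66%. Of the 204 that were 2-fold higher 26 held it, 12.75%. The CACC box CCACACCC that KLF factors recognise was in 3 of these 56, 5.36%, and in 4.04% of all. The window of Epb42 (RefSeq, GRCm38.p6, chr2:121037068-121037127, - strand) holds the reverse complement of the GATA site, in capitals.
Epb42: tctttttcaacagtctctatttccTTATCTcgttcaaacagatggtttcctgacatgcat

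Embryonic and adult globins diverged. Hba-x, the embryonic zeta chain, read 61.1 in wild-type, 155 in the DNase II-deficient and 35.2 in the double-deficient array, a 4.40-fold difference between the mutants. Hbb-y read 224, 403 and 133, and Hbb-bh1 read 184, 288 and 145. All 3 embryonic chains were below wild-type in the double-deficient array. The adult chains Hbb-bt, at 895 and 993 in the mutants, and Hba-a1, at 482 and 547, differed by less than the typical spread, and at such intensities a probe may be near saturation. Embryonic globins mark primitive red cells of yolk sac origin, whose share falls as gestation advances. Their summed level was 469, 846 and 314 and that of definitive red cell markers 1715, 1397 and 1584. The definitive sum was made almost wholly of Hbb-bt and Hba-a1. The part of these cell types in the globin values was not tested.

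Macrophage genes did not move together. Of 15 compared resident macrophage genes, 4 were 2-fold higher and 1 lower, with a median of 0.16. Marco, a scavenger receptor, read 41.1 in wild-type, 3.98 in the DNase II-deficient and 13.5 in the double-deficient array. Fcna, a ficolin, read 21.7, 2.43 and 7.23. Both stayed well below wild-type. Mrc1, the mannose receptor, and Nr1h3, the gene of LXR alpha that drives Kupffer cell identity, read 2.78 and 7.24, and 3.40 and 8.53, and passed their wild-type values of 3.98 and 3.96. Cd5l, a target of LXR named after its values were seen, stayed low at 30.6, 3.41 and 4.10. Siglec1, which interferon induces, read 0.267, 0.997 and 0.430. The genes C1qa, at 5.73 and 9.64, and C1qb, at 65.4 and 69.4, were within 2-fold.

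Genes of activated and lipid-laden macrophages differed little as a list, with a median of -0.06. Of the measured members 9 lay above 0 and 12 below. Of 17 compared, 1 was 2-fold lower, Fabp4, at 11.1, 56.2 and 19.9. That is 5.88%, near the 4.85% of all genes compared. Gpnmb, Msr1 and Bcl2a1b are named after their values were seen. Gpnmb, a lysosomal stress gene, lay at the wild-type floor and read 2.24 and 1.67 in the mutants. Msr1, a scavenger receptor, read 1.83, 6.79 and 6.91. Bcl2a1b, a survival gene that NF-kB induces, read 1.71, 21.9 and 22.7, and close copies of it may share the signal. These were high in both mutants. Lysosomal genes as a list had a median of -0.25 with 2 of 30 genes 2-fold lower, including Lamp2 at 8.83, 18.9 and 9.11.

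Neutrophil granule genes had a median of -0.53, with 17 of 18 measured members below 0. Of 13 compared, 2 were 2-fold lower, Itgam and Cybb, which monocytes and macrophages also express. S100a8 and S100a9 read 194 and 164, and 330 and 271, above their wild-type values of 68.4 and 124. The neutrophil markers summed to 221 in wild-type, 607 in the DNase II-deficient and 499 in the double-deficient array over 5 genes. Haematopoietic growth factor and receptor genes had a median of -0.56, with 10 of 13 measured members below 0 and 0 of 8 compared members past 2-fold. Of 9 mast cell, basophil and eosinophil genes 2 were higher, Mcpt8 (1.32 and 3.07) and Cpa3 (1.43 and 2.98). Itga2b was the one of 10 megakaryocyte genes that was 2-fold lower, and the megakaryocyte markers summed to 68.9, 67.7 and 59.5 in the same order. Lymphoid markers were near the floor, with sums of 0.747, 0.684 and 0.615 over 2 genes, 1 of which was at the floor in both mutants.

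Genes of supporting liver cells leaned lower in both lists. Of 20 compared stellate and mesenchymal genes, 4 were 2-fold lower and 0 higher, with a median of -0.66. Tagln, a contractile gene, read 1.98, 9.75 and 3.60, Pdgfrb 1.20, 4.11 and 1.53, and the collagen Col5a2 7.06, 20.3 and 8.69. The collagen gene Col3a1 read 118 and 84.5 in the mutants and Col1a1 3.98 and 5.02. Their marker sum was 80.3, 124 and 91.1, made almost wholly of Col3a1. Of the other markers, Lrat (1.65 and 0.477 in the mutants) was lower, while Des (0.758 and 1.06) and Col1a1 were higher. Of 14 endothelial genes 4 were 2-fold lower and 1 higher, with a median of -0.35. The lower ones included Pecam1 (2.01 and 0.925) and Emcn (1.93 and 0.817). The higher one was Stab2, a scavenger receptor of sinusoids, at 23.04, 10.2 and 22.1 in the 3 arrays.

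Hepatocyte genes showed no common shift. Of 35 compared plasma protein genes, 4 were 2-fold higher and 1, Apoc3, was lower, with a median of -0.13. All 4 higher genes were copies of Serpina1, the gene of alpha-1 antitrypsin, and their probes may share signal. Serpina1c read 56.0, 5.11 and 33.0 and Serpina1e 242, 59.6 and 168. The bright Afp and Apoa1 read 885 and 568, and 439 and 434, in the mutants. Hepatocyte markers summed to 1589, 1790 and 1382. In amino acid and glucose metabolism, 3 of 18 compared genes were lower and 1 higher: Fbp1 (4.15 and 1.03), Hpd (8.33 and 3.72) and Ass1 (45.1 and 21.8) were lower and G6pc (56.0 and 118) higher.

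Few growth genes passed 2-fold. Of 39 compared genes for DNA replication 1, Ccne1, was 2-fold higher and 0 lower, with a median of 0.38. Pcna, the replication clamp, read 189, 103 and 157 in wild-type and then the single and double mutant. Of 38 mitosis genes 2 were higher, and Mki67, a proliferation marker, read 307, 133 and 226. Among 52 oxidative phosphorylation genes the median was 0.29 and Ndufa6 alone was 2-fold higher, at 77.2, 19.4 and 58.7. The 58 ribosomal protein genes had a median of 0.02, with 31 members above 0 and 27 below, and 0 of them differed by 2-fold in either direction. Of measured replication genes 39 lay above 0 and 1 below, and of all genes compared 5059 and 3244. Mitosis genes split 33 and 6, and oxidative phosphorylation genes 48 and 5. After subtracting the median of all genes, replication stood at 0.27 and ribosomal genes at -0.10. The typical spread of 0.40 describes single genes and is no measure of a list median.

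Outside the lists, the largest differences in the lower direction included further genes with the profile of Rsad2. Apol9a, of the apolipoprotein L family, read 0.160 in wild-type, 21.1 in the DNase II-deficient and 0.289 in the double-deficient array. The probe annotated to Vmn1r41, a vomeronasal receptor gene, read 0.120, 13.3 and 0.206; this annotation can be old. Ms4a4c, a membrane protein gene of leukocytes, read 0.726, 35.7 and 0.887. Ch25h, which makes an antiviral oxysterol, read 0.149, 3.97 and 0.176. Rnf213, a large ubiquitin ligase, read 4.90, 63.6 and 7.15.

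Others belonged to no antiviral family. For Thrb, a thyroid hormone receptor, the brightest of 3 probes read 0.421, 7.18 and 0.341, but another read 0.694, 0.518 and 0.749 and the remaining one was at the floor in both mutants. Pgf, a relative of Vegfa, read 0.349, 3.55 and 0.2499. Kcne3, a potassium channel subunit, read 0.497, 8.89 and 0.807, and the decoy receptor gene Il1r2 read 0.418, 5.02 and 0.786. Pgf, Kcne3 and Il1r2 were near wild-type in the double-deficient array. Among the brightest genes, Plac8 (22.7, 156 and 36.2) and Ly6e (25.2, 95.1 and 26.6) were lower. In the higher direction Ctse, an aspartic protease found in red cell precursors, read 50.4, 12.6 and 55.0. Kctd14 read 107, 15.6 and 63.1, Ptp4a3 101, 19.7 and 79.5, and Xpo7, a nuclear exporter active in erythroblasts, 192, 42.4 and 157.

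Lower genes lay next to each other more often than the overall share of lower genes. Among 8137 compared genes with a place in the reference order, 4.83% were 2-fold lower, and the next compared gene was also lower for 11.2% of these. Runs of at least 3 neighbours that were all 2-fold lower, looked for after the values were seen, numbered 9. They included the run Ifit2, Ifit3 and Ifit1, the run Psmb9, Tap1, Psmb8 and Tap2 in the MHC, the Schlafen run Slfn9, Slfn2, Slfn1 and Slfn4, and the run Trim34a, Trim12a, Trim30a and Trim30d. The run Ms4a4c, Ms4a4b, Ms4a6c and Ms4a6b belongs to a family of leukocyte membrane proteins. Psmb8, Psmb9, Tap2 and Ms4a6c are named for their place in a run. Members of these clusters are related in sequence in most cases, and shared signal between their probes was not tested.

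Probes of the same gene offer the one internal repeat. Among 501 genes with at least 2 compared probes, the median range of the difference between probes was 0.30, and 33 genes had a range above 1. Of 17 genes with any probe 2-fold lower, 5 were so by all their compared probes and 15 had all probes on the same side of 0. Of 27 genes with any probe 2-fold higher, 3 were so by all. Oas1b was lower by both of its probes, at -3.78 and -5.21. For Oas3 the chosen probe gave -0.62 and the other -3.57, and for Parp14 the chosen probe gave 0.35 and the others -4.36 and -2.47. For both genes the chosen probe differed less between the mutants than the others did. Oas3 is named after its values were seen. Of 1714 compared probes without a gene symbol, 51 were 2-fold lower and 73 higher, and 12 were 4-fold lower, by up to 50.4-fold.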

How the data were processed

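Fetal liver RNA of embryonic day 14.5 was measured on 3 CodeLink arrays, 1 per genotype. Poly(A) RNA was, per the labels' protocols, labelled with biotin during transcription in vitro, detected with a Cy5 streptavidin conjugate and quantified with the vendor's image software, with no version or background method stated there. Each deposited value is a linear intensity that the authors had normalised, with 253 of them at or below 0 in the double-deficient and 224 in the DNase II-deficient array. A shared array median hides differences in total RNA.

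Intensities were raised to the array's 25th percentile and log2 transformed. A gene was compared where it exceeded the array median in at least 1 mutant array. Of 20289 probes, 15120 had 1 gene symbol, 38 several and 5131 none in an annotation that can be old, and 1248 genes had several probes, of which the brightest on average was used. List medians use members above the floor in at least 1 mutant array, and counts use compared genes. The spread is 1.4826 times the median absolute deviation over the 500 genes nearest in level. With 1 array per genotype no test was run.

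The 59 lists, which name 1350 genes, and the comparison were chosen with earlier results of these data known. The rule for named genes took the targeted genes, from each list up to 6 with the largest difference, up to 3 against the sign of its median and the 2 brightest, the 20 largest differences each way outside the lists, the 10 largest bounds each way, and the 10 largest differences among the brightest 10% of genes. Clone-based names were not printed. Genes named outside the rule are marked as such. Promoter windows came from RefSeq (GRCm38.p6), matched by Entrez identifier. Scripts used Python 3.11.15, numpy 2.4.6 and pandas 2.3.3 and were checked on simulated data. Alternatives changed the scaling, the floor, the filter and the choice of probe.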

Additional observations from a re-analysis of the deposited data

How the results depend on the processing

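With 1 array per genotype the replicate error is unknown, and dim genes are limited by background. No paired analysis was possible because each genotype has 1 array. All 112 of the 4-fold lower genes stayed at least 2-fold lower under 4 other scalings and with the mean of probes. They also did so with the floor at the 10th percentile and with no filter. These settings, apart from the mean of probes, could hardly have removed a gene. The bar was loosened to 2-fold, and the scalings lowered the median difference from 0.11 to 0.04 or less. A lower floor or no filter cannot shrink the difference of a compared probe. With each array's own median as floor, 95 of the 112 were at least 2-fold lower. A filter at the 75th percentile compared 4540 genes and gave 158 genes 2-fold higher, 193 lower, 7 higher by 4-fold and 68 lower by 4-fold, since fewer genes were tested. Subtracting the median difference left 8 genes 4-fold higher. With the floor raised to the median, the direct antiviral median was -2.13, the TRIM median -2.88 and the MHC class I median -1.16. With the floor at the 10th percentile the TRIM median was -2.34, since 2 members at the floor in the main setting then entered it. No list median of at least 0.5 in size changed sign under these alternatives. Among named genes past 2-fold, Spry4 alone changed sign, to -0.12 with the mean of its probes. Of 169 named genes that were 2-fold lower 144 stayed so in every setting, and of 58 that were higher 35 did.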
